A study of Mus musculus with 12 samples.

Results

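Of the 35275 genes in the deposited table, 120 were long non-coding RNAs (lncRNAs) expressed in cultures prepared as mouse cardiac fibroblasts, which also held macrophage RNA. They were typed lincRNA, processed_transcript or antisense, off the X and Y chromosomes, and were chosen by their measured level in these same libraries, a mean of at least 5 CPM (each count divided by its library total and scaled to the same depth) over the 12 libraries. Another 4477 lncRNA genes off those chromosomes did not reach this level, and 1163 of them had no count in any library. The 120 comprised 60 lincRNA, 40 processed_transcript and 20 antisense genes. Just inside the threshold lay A730017L22Rik at 5.08, RP23-402K24.2 at 5.10 and Trp53cor1 at 5.12 CPM, and just outside lay 4833418N02Rik and 5033428I22Rik at 4.94 and 1500004A13Rik at 4.83 CPM. Only 92 of the 120 had a mean of at least 5 CPM in every condition, so 28 passed through the conditions in which they were higher, and counts are also given for the 92.

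All libraries came from passage 2 cardiac fibroblasts of 12-week-old C57BL/6 Smad7 fl/fl mice. The cell type field gives floxed mice as the source in every group, although the titles of the control libraries call their cells wild type. Cells of all 4 conditions were infected with an adenovirus for 48 hours at a multiplicity of 100. The virus given to Smad7-KO cells expressed the Cre recombinase, whereas that given to control cells is described as GFP in the sample labels and as empty in the paper. Cells of each genotype were left unstimulated or were given TGF-β1 at 10 ng/ml for 2 or 4 hours, since the label fields differ, which gave 4 conditions of 3 libraries each. The sources do not say whether the 3 libraries came from separate mice, so p values measure the spread between these libraries, which may be technical.

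lncRNAs are transcripts without a long open reading frame that act in many ways. Some scaffold nuclear bodies, some silence neighbouring genes from imprinted loci, and others are mainly known as precursors that carry microRNAs or small nucleolar RNAs (snoRNAs) and are processed to release them. TGF-β1 is the main profibrotic cytokine of the heart, its receptors act through Smad2 and Smad3, and Smad7 is the inhibitory Smad that restrains the pathway.

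In 12 of the 120 lncRNAs the gene interval held mature microRNAs in RefSeq, at 41 positions. Mature microRNAs are too short for these libraries and were not measured. A selection from 5 hosts that passed the test in at least 1 comparison, chosen for shared or well-known seeds, is shown with their positions in build GRCm38.p6, each on the plus strand, and with the seed (bases 2 to 8), which pairs with target mRNAs, in capitals. Dnm3os carries miR-199a and miR-214, A330023F24Rik carries miR-29b and miR-29c, which share a seed and are known to target collagen mRNAs, Mir22hg carries miR-22, and 2810055G20Rik (Mir99ahg) and 2610203C20Rik carry miR-99a and miR-100, again with a common seed, as well as the same miR-125b-5p.
mmu-miR-199a-5p of Dnm3os (chr1:162217844-162217866): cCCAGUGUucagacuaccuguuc
mmu-miR-199a-3p of Dnm3os (chr1:162217883-162217904): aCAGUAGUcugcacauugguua
mmu-miR-214-3p of Dnm3os (chr1:162223438-162223459): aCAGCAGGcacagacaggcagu
mmu-miR-29b-3p of A330023F24Rik (chr1:195037091-195037113): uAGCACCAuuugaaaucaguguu
mmu-miR-29c-3p of A330023F24Rik (chr1:195037600-195037621): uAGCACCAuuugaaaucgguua
mmu-miR-22-3p of Mir22hg (chr11:75463772-75463793): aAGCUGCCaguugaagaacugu
mmu-miR-99a-5p of 2810055G20Rik (chr16:77598940-77598961): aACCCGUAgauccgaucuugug
mmu-miR-100-5p of 2610203C20Rik (chr9:41531437-41531458): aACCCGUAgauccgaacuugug
mmu-miR-125b-5p of 2810055G20Rik (chr16:77646279-77646300): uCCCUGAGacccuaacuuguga
mmu-let-7c-5p of 2810055G20Rik (chr16:77599672-77599693): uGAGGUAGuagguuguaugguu

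Total counts ranged from 19056916 to 25371321 per library, of which the 120 lncRNAs took between 0.674% and 1.67%. Smad7 itself was at 71.4, 74.6 and 77.2 CPM in control libraries and at 28.6, 28.4 and 31.1 in Smad7-KO libraries, here and from now on as CPM normalised by the trimmed mean of M values (TMM). Under TGF-β1 it was at 145, 150 and 142 CPM in control and 80.8, 69.99 and 79.5 in Smad7-KO libraries. Unstimulated control library 2 stood apart, in that its counts fell with gene length relative to the other libraries (slope -0.368 on log2 length, against -0.127 to 0.129 in the other 11). The biological coefficient of variation was 0.335 in the unstimulated control group and 0.0530 to 0.137 in the other groups. The 10 fibroblast markers summed to between 7425 and 11496 CPM in all libraries, but members of that list went both ways. Thy1 was at 96.5 to 119 CPM in control and 34.2 to 44.9 in Smad7-KO libraries, and Tcf21 at 107 to 178 and 55.7 to 76.6 CPM. In contrast, Dcn was at 526 to 615 CPM in control and 651 to 735 in Smad7-KO libraries, and Lum at 0.407 to 0.986 and 1.18 to 1.72 CPM. The remaining markers of the list overlapped between the genotypes. The sum of 9 macrophage markers, with Lyz2 the most abundant, lay between 14089 and 23113 CPM, above the fibroblast sum in every library. The cultures thus held much macrophage RNA, and these data cannot assign an lncRNA to 1 cell type. Endothelial markers summed to between 280 and 333 CPM in the 6 control libraries and between 26.0 and 29.02 in the 6 Smad7-KO libraries, although Kdr, Tek and Flt1 of that list overlapped. Epicardial and mesothelial markers summed to between 239 and 286 CPM in control and between 145 and 177 in Smad7-KO libraries, and cardiomyocyte markers to between 26.9 and 72.7 and between 17.05 and 22.7 CPM. The macrophage gene Cd5l was at 39.6 to 55.4 CPM in control and 217 to 275 in Smad7-KO libraries. Of the same list, Cd68 was at 455 to 674 CPM in control and 862 to 977 in Smad7-KO libraries. Csf1r was at 706 to 1268 and 1372 to 1754 CPM, and Mrc1 at 575 to 1012 and 1106 to 1462 CPM. Lyz2, C1qa, C1qb, Cd14 and Fcgr1 overlapped between the genotypes. In such bulk samples fewer cells of a type and less RNA per cell cannot be told apart, and the part of these cell types in the Smad7-KO differences was not tested.

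The levels of the 120 lncRNAs spanned several orders of magnitude. Per length and library total (FPKM), the highest mean over the 12 libraries belonged to Yam1 (2475), followed by Malat1 (333), 2410006H16Rik (93.1), AU020206 (72.9), Gm26917 (70.6), Neat1 (65.8), Gas5 (39.2), 1810058I24Rik (36.5), 1110038B12Rik (31.3) and Mir22hg (30.8). Yam1 (chr17:39846958-39848788) shares 68% of its interval with Rn18s-rs5, a sequence related to 18S ribosomal RNA, and Gm26917 lies beside it, so their counts may hold ribosomal RNA and are uncertain. Yam1 was at 7553, 8659 and 2371 CPM in control, 2946, 2550 and 2497 in TGF-β1 control, 3498, 4596 and 4398 in Smad7-KO and 3265, 2315 and 10224 in TGF-β1 Smad7-KO libraries. Its highest and lowest libraries were thus of the same condition, and neither gene passed the test in any comparison. Across the 120 lncRNAs, the highest library was a median of 2.51 times the lowest, from 1.30 times for Rab10os to 32.9 times for Gm9581.

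TGF-β1 raised AI504432, AU020206, Dnm3os and RP24-217M7.2 and lowered Neat1 in both genotypes. In control cells 10 of the 120 lncRNAs passed the test of edgeR (Benjamini-Hochberg adjusted p of 0.05 or less over all 15150 genes tested), 5 higher and 5 lower, which is 8.33% of the 120 beside 8.37% of all genes tested (5.04% higher and 3.33% lower). In Smad7-KO cells 14 passed, 9 higher and 5 lower, or 11.7% of the 120 beside 10.2% of all genes (5.33% higher and 4.90% lower). Of the 92 lncRNAs at 5 CPM or more in every condition, 5 and 9 passed. The median log2 fold change was -0.13 in control and -0.05 in Smad7-KO cells, beside -0.03 and -0.01 over all genes tested. Without unstimulated control library 3, 29 passed in control cells, beside 22.3% of all genes. Without TGF-β1 Smad7-KO library 1 or 3 or Smad7-KO library 1, 8, 8 and 9 passed in Smad7-KO cells. The share over all genes in these fits was 6.34%, 6.96% and 6.51%.

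The largest increase was that of AI504432 (chr3:107039504-107054347), a lincRNA 1375 bases from the potassium channel gene Kcna3 on the same strand. AI504432 overlaps another gene of the deposited table, and the kit does not mark strand, so its counts are uncertain there. AI504432 was at 4.57, 2.23 and 6.66 CPM in control and at 41.3, 28.02 and 36.5 in TGF-β1 control libraries. In Smad7-KO libraries it was at 6.14, 5.88 and 6.77 CPM, and with TGF-β1 at 51.3, 54.8 and 46.9. Every stimulated library lay above every unstimulated one. The log2 fold change was 2.95 ± 0.29 (SE, edgeR adjusted p = 7.0e-05) in control and 3.02 ± 0.29 (adjusted p = 4.3e-05) in Smad7-KO cells. Kcna3 rose as well, by 2.79 ± 0.58 (adjusted p = 0.0101) and 2.71 ± 0.53 (adjusted p = 0.00633) on the log2 scale, from 0.807, 0.0571 and 2.19 CPM in control to 9.79, 4.27 and 8.31 in TGF-β1 control libraries.

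AU020206 (chr7:75769762-75782099), a short lincRNA 15153 bases from Akap13, was the most abundant of the induced lncRNAs. It was at 20.3, 14.7 and 18.3 CPM in control, 57.3, 62.1 and 69.0 in TGF-β1 control, 25.0, 25.9 and 27.2 in Smad7-KO and 88.1, 81.7 and 85.5 in TGF-β1 Smad7-KO libraries. The 4 conditions did not overlap. TGF-β1 raised it by 1.82 ± 0.12 (adjusted p = 4.7e-06) in control and 1.71 ± 0.12 (adjusted p = 5.3e-06) in Smad7-KO cells on the log2 scale. It was also higher with Smad7 loss, by 0.55 ± 0.12 unstimulated (adjusted p = 0.0110) and 0.44 ± 0.12 under TGF-β1 (adjusted p = 0.0330), the latter being lost in 5 of 6 fits without 1 library.

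Dnm3os (chr1:162217623-162225550), the antisense precursor of miR-199a and miR-214 within Dnm3, was at 5.33, 7.60 and 7.51 CPM in control and at 24.7, 19.2 and 21.4 in TGF-β1 control libraries. In Smad7-KO libraries it was at 5.30, 6.09 and 6.29 CPM, and with TGF-β1 at 17.7, 18.7 and 18.4. The stimulated libraries lay above all others in both genotypes. The log2 fold change was 1.68 ± 0.16 (adjusted p = 4.3e-05) in control and 1.63 ± 0.16 (adjusted p = 4.4e-05) in Smad7-KO cells. The library kit does not mark strand, so reads of Dnm3os and of the overlapping Dnm3 cannot be told apart. Dnm3 was at 1.26 to 2.64 CPM over the 12 libraries, and its own log2 fold changes were 0.31 ± 0.25 (adjusted p = 0.536) and 0.14 ± 0.26 (adjusted p = 0.889).

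RP24-217M7.2 (C430002N11Rik, chr9:96765562-96782477) was at 3.77, 3.77 and 3.54 CPM in control and 12.5, 12.3 and 12.9 in TGF-β1 control libraries. In Smad7-KO libraries it was at 3.22, 4.38 and 2.91 CPM, and with TGF-β1 at 9.77, 11.4 and 10.5. Groups did not overlap in either genotype, and the log2 fold change was 1.77 ± 0.16 (adjusted p = 3.1e-05) in control and 1.59 ± 0.16 (adjusted p = 4.9e-05) in Smad7-KO cells. Zbtb38, a zinc finger repressor gene 12731 bases away on the other strand, also rose, by 0.89 ± 0.14 (adjusted p = 0.00170) and 0.68 ± 0.14 (adjusted p = 0.00797). The remaining lncRNA that rose in both genotypes was Gm20645, by 0.70 ± 0.13 (adjusted p = 0.00512) and 0.64 ± 0.13 (adjusted p = 0.00683) on the log2 scale. AI504432 and RP24-217M7.2 were below 5 CPM in at least 1 condition and so entered the 120 through their stimulated libraries. Each of these 5 lncRNAs passed in both genotypes in all fits without 1 library of the comparison.

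The RefSeq promoters (250 bases before to 50 after the start, build GRCm38.p6) of the strongly induced lncRNAs are shown because these genes moved together, with CAGAC and its complement GTCTG, the short Smad-binding element, in capitals. AI504432 had no entry.
AU020206 (chr7:75782071-75782370, minus strand): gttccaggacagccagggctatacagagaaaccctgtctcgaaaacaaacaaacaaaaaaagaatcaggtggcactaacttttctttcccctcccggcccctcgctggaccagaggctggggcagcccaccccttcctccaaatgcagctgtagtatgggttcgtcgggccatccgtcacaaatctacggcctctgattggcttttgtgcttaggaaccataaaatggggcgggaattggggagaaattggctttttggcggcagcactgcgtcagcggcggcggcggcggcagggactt
Dnm3os (chr1:162217373-162217672, plus strand): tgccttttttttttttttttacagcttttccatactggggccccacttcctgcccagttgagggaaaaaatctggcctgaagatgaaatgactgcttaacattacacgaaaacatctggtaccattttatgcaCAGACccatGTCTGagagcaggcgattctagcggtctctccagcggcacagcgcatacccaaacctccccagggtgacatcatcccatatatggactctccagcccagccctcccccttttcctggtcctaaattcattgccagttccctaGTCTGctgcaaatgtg
RP24-217M7.2 (chr9:96765312-96765611, plus strand): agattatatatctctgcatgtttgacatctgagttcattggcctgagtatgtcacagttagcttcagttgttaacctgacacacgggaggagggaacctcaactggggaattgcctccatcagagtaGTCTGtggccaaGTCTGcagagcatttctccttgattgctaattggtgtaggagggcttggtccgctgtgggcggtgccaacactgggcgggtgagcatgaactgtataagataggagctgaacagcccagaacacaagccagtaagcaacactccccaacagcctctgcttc
On either strand CAGAC occurred 3 times in the Dnm3os window, 2 times in that of RP24-217M7.2 and not in that of AU020206. It was found in 49.6% of all 32851 promoters of the same length and in 38 of the 67 promoters matched to these lncRNAs. None of the 3 windows held the palindrome GTCTAGAC (0.213% of all promoters), the AP-1 site TGANTCA (7.81%) or the TATA box TATAAA (13.6%), whereas the GC box GGGCGG (35.7%) was in those of AU020206 and RP24-217M7.2. A match describes the letters of the window and is no evidence of binding.

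**Figure D1:**
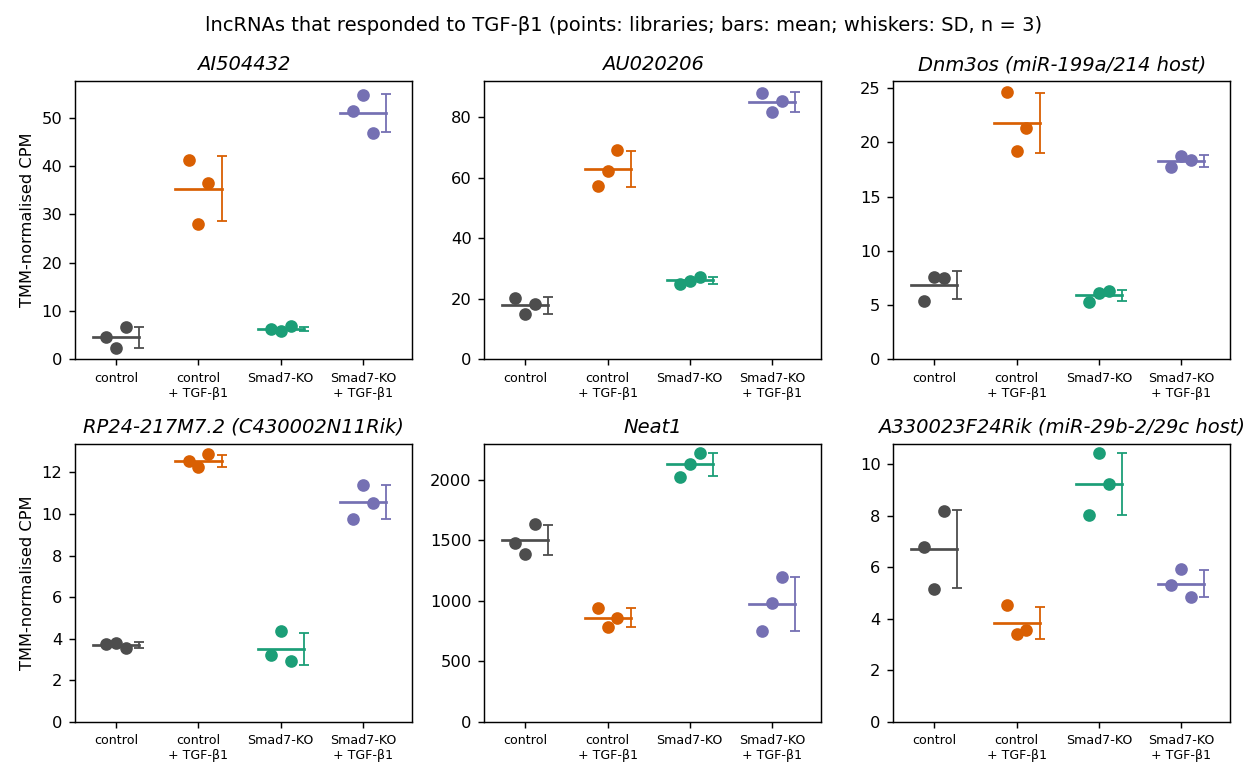
TMM-normalised CPM (y axis, from 0) of 6 lncRNAs in each of the 12 libraries by condition (x axis), with points for libraries, horizontal bars for means and whiskers for SD (n = 3). In each panel the stimulated libraries lie above the unstimulated ones of the same genotype for AI504432, AU020206, Dnm3os and RP24-217M7.2, and below them for Neat1 and A330023F24Rik.

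Neat1 (chr19:5824708-5845478), the scaffold of nuclear paraspeckles, was the most abundant lncRNA to fall. It was at 1479, 1385 and 1631 CPM in control and 937, 781 and 861 in TGF-β1 control libraries, and at 2026, 2133 and 2220 CPM in Smad7-KO and 749, 979 and 1198 in TGF-β1 Smad7-KO libraries. No stimulated library reached an unstimulated one. The log2 fold change was -0.80 ± 0.16 (adjusted p = 0.00724) in control and -1.12 ± 0.16 (adjusted p = 0.000667) in Smad7-KO cells, and the call held in all fits without 1 library. When only the libraries of the comparison were fitted, 4 of the 120 were called higher and 0 lower in control cells. The control-cell calls of Neat1 and of the other lncRNAs that fell were thus lost there. That fit called 260 genes higher and 131 lower of 14553 tested. Malat1, the nuclear speckle RNA that lies next to Neat1 in the genome, had log2 fold changes of 0.00 ± 0.36 and -0.35 ± 0.36 (adjusted p = 0.995 and 0.730).

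A330023F24Rik (chr1:194976375-195037908), host of miR-29b-2 and miR-29c, was at 6.77, 5.14 and 8.18 CPM in control and 4.53, 3.42 and 3.55 in TGF-β1 control libraries, and at 8.03, 10.4 and 9.24 CPM in Smad7-KO and 5.31, 5.93 and 4.86 in TGF-β1 Smad7-KO libraries. Within each genotype the stimulated libraries lay below the unstimulated ones. It fell by 0.81 ± 0.20 (adjusted p = 0.0242) in control and by 0.78 ± 0.19 (adjusted p = 0.0217) in Smad7-KO cells on the log2 scale. A330023F24Rik was below 5 CPM in the TGF-β1 control condition and entered the 120 through the conditions in which it was higher. These calls were lost in 3 and 4 of 6 fits without 1 library, with adjusted p values up to 0.109 and 0.104. 5330426P16Rik (Dubr) also fell in both genotypes, by 0.75 ± 0.14 (adjusted p = 0.00439) and 0.58 ± 0.13 (adjusted p = 0.0154). The second call was lost in most fits without 1 library, with adjusted p values up to 0.0728.

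Of the calls made in 1 genotype, RP24-459A4.1 (Hand2os1) and Gm13375 fell in control cells, by 0.83 ± 0.21 (adjusted p = 0.0274) and 0.70 ± 0.18 (adjusted p = 0.0341). In Smad7-KO cells Gm26982 rose by 0.86 ± 0.19 (adjusted p = 0.0132), while 6530402F18Rik fell by 0.84 ± 0.22 (adjusted p = 0.0330) and Gm14461 by 0.65 ± 0.16 (adjusted p = 0.0258). Gm20204 and 6330403L08Rik, named after their values were seen, rose by 0.67 ± 0.14 (adjusted p = 0.00767) and 0.52 ± 0.10 (adjusted p = 0.00636). RP24-459A4.1, Gm13375, Gm26982 and 6530402F18Rik were below 5 CPM in at least 1 condition. Most fits without 1 library lost the calls of Gm13375, Gm26982, 6530402F18Rik and Gm14461. Their adjusted p values there reached 0.146, 0.0658, 0.150 and 0.116. The call of RP24-459A4.1 was lost without TGF-β1 control library 1, 2 or 3 (adjusted p up to 0.129). A call in 1 genotype alone does not show a difference between them, and the interaction tests it. Among the 120, 0 passed the interaction in edgeR, with 1 (6530402F18Rik) past the unadjusted threshold of 0.05. In DESeq2 0 passed, with 2 past the unadjusted threshold, and in limma 0 and 1. Over all genes 0.0198% passed the interaction in edgeR, and 2.59% at the unadjusted threshold. The interaction was 0.07 ± 0.39 for AI504432, -0.11 ± 0.17 for AU020206, -0.05 ± 0.22 for Dnm3os and -0.32 ± 0.22 for Neat1 on the log2 scale.

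**Figure D2:**
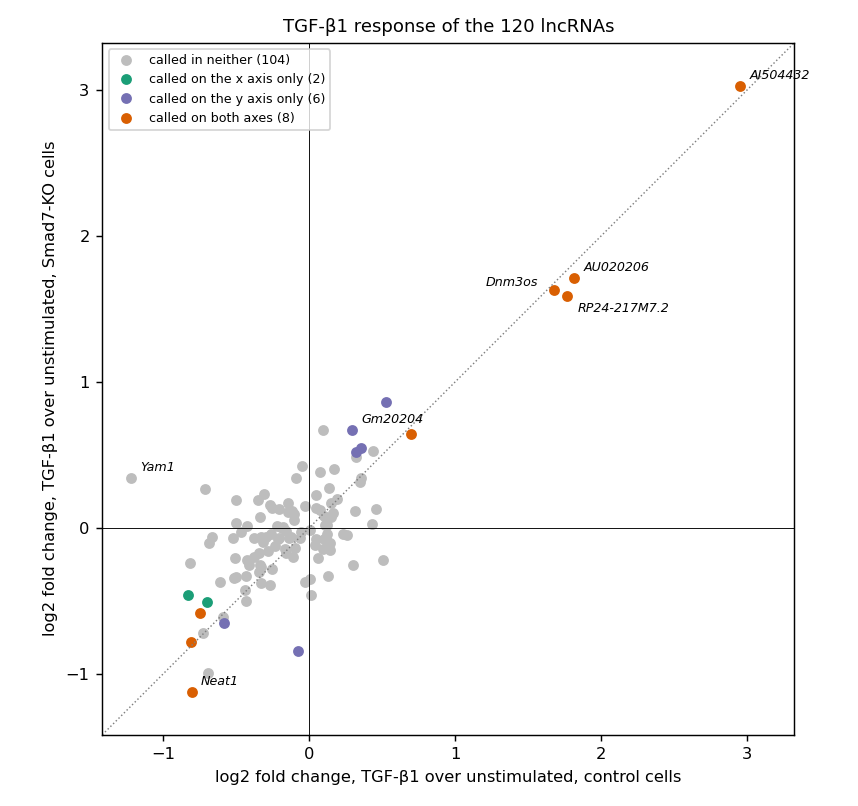
Log2 fold change with TGF-β1 in control cells (x axis) against that in Smad7-KO cells (y axis) for the 120 lncRNAs, coloured by the edgeR call in each, with the dotted line at equality. The 8 lncRNAs called in both genotypes lie near the line, from Neat1 at the lower left to AI504432 at the upper right.

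With Smad7 loss the imprinted Meg3 and Rian and the miR-22 host were lower, and Gm14461, Gpr137b-ps and 4930430E12Rik higher, in unstimulated cells and under TGF-β1. Malat1 was higher, and 9 of 11 snoRNA hosts were lower, in unstimulated cells, with 2 of the 11 lower under TGF-β1. In unstimulated cells 44 of the 120 lncRNAs passed, 14 higher and 30 lower, which is 36.7% of the 120 beside 25.8% of all genes tested (12.1% higher and 13.7% lower). Under TGF-β1 19 passed, 9 higher and 10 lower, or 15.8% beside 13.0% of all genes (5.72% higher and 7.23% lower). Of the 92 lncRNAs at 5 CPM or more in every condition, 37 and 18 passed. The median log2 fold change over the 120 was -0.09 unstimulated and 0.01 under TGF-β1, beside -0.02 and -0.02 over all genes. The unstimulated count depended on single libraries: without control library 1, 2 or 3 it was 17, 30 and 83, and without Smad7-KO library 1, 2 or 3 it was 13, 12 and 15. The share over all genes moved likewise, to 12.9%, 19.4% and 51.5% and to 10.6%, 9.90% and 9.90%. Without Smad7-KO library 1 or 2 the 120 thus lay near the share of all genes. They also did when only the libraries of the comparison were fitted, with 6 of the 120 and 660 of 14524 genes called. The excess over all genes in the fit to all 12 libraries was therefore not stable. Under TGF-β1 the count was 51 and 40 without unstimulated control library 2 or 3, 12, 6 and 11 without TGF-β1 control library 1, 2 or 3, and 7 and 6 without TGF-β1 Smad7-KO library 1 or 2. Over all genes these fits called 28.8% and 22.6%, then 9.35%, 5.70% and 7.25%, then 942 of 15529 and 965 of 15561 genes.

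Of the 44 lncRNAs called in unstimulated cells 18 (40.9%) were also called under TGF-β1, and these were 18 of 19 (94.7%) of the calls there. All 18 had the same direction in both states, 8 higher and 10 lower. Over all genes 1629 were called in both states, 41.7% and 83.0% of the calls, and 1628 of them had the same direction. Gm20204, named after its values were seen, was the 1 lncRNA called only under TGF-β1, higher by 0.47 ± 0.13 (adjusted p = 0.0397), a call lost in all 6 fits without 1 library.

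**Figure D3:**
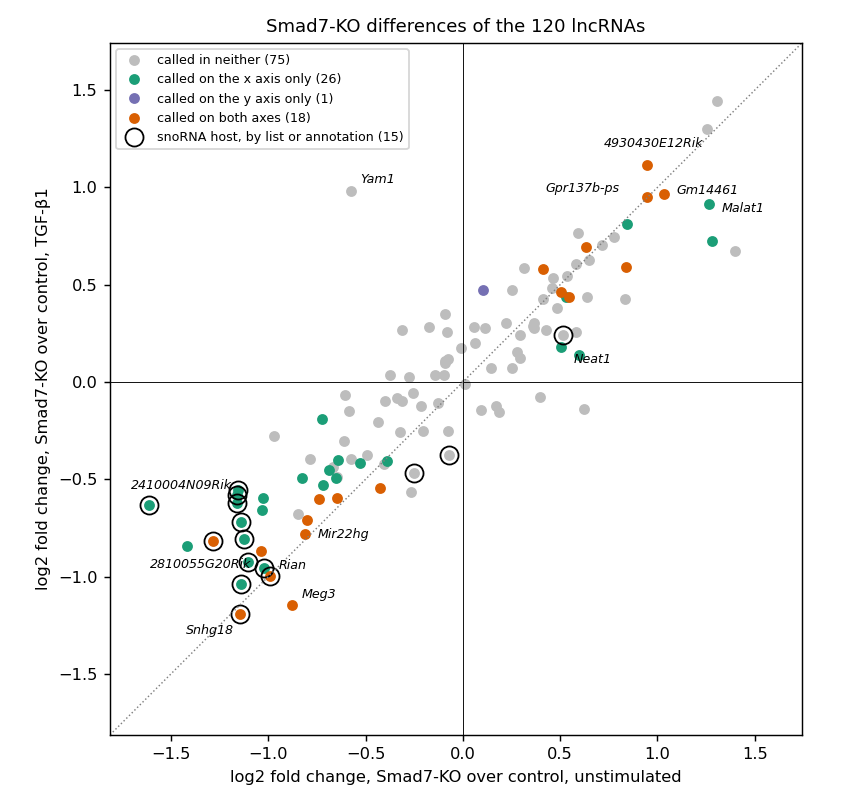
Log2 fold change of Smad7-KO over control in unstimulated cells (x axis) against that under TGF-β1 (y axis) for the 120 lncRNAs, coloured by the edgeR call in each, with 15 snoRNA hosts ringed. Of these 15 hosts 12 were called lower in unstimulated cells and 3 under TGF-β1, and the 18 lncRNAs called in both states lie at the lower left and the upper right.

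Meg3 (chr12:109541001-109571726) and Rian (chr12:109603940-109661716) are neighbouring, maternally expressed RNAs of the Dlk1-Dio3 imprinted region. Meg3 was at 133, 82.6 and 176 CPM in control and 77.1, 68.5 and 67.8 in Smad7-KO libraries, and at 153, 123 and 132 CPM in TGF-β1 control and 53.2, 69.7 and 61.9 in TGF-β1 Smad7-KO libraries. Rian was at 91.7, 79.9 and 112 CPM in control, 53.4, 45.5 and 43.6 in Smad7-KO, 94.1, 92.5 and 85.3 in TGF-β1 control and 44.9, 45.8 and 45.3 in TGF-β1 Smad7-KO libraries. For both RNAs the genotypes did not overlap in either state. Meg3 had log2 fold changes of -0.88 ± 0.22 (adjusted p = 0.0181) unstimulated and -1.15 ± 0.22 (adjusted p = 0.00683) under TGF-β1. Rian had log2 fold changes of -0.99 ± 0.13 (adjusted p = 0.000589) and -0.999 ± 0.13 (adjusted p = 0.000687). Rian kept its call in all fits without 1 library, whereas the unstimulated call of Meg3 was lost without control library 1 (adjusted p = 0.0526) and without Smad7-KO library 2 or 3 (adjusted p = 0.0681 and 0.0692). Over the 12 libraries Rian was the lncRNA most like Meg3 (Pearson r = 0.945 of log2 (CPM + 1)), a description of libraries that share their conditions. With the gene length trend removed the unstimulated log2 fold changes were -1.45 for each (adjusted p = 5.2e-06 for Meg3 and 1.6e-05 for Rian).

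Of 9 imprinted lncRNAs listed, 4 were among the 120, and the other members were Kcnq1ot1 and RP24-439I22.1 (Snhg14). Kcnq1ot1, the paternally expressed RNA that silences the Kcnq1 cluster, was at 6.14, 5.94 and 10.3 CPM in control and 13.3, 12.8 and 14.2 in Smad7-KO libraries. It was higher by 0.84 ± 0.26 (adjusted p = 0.0394), which held neither with the length trend removed (0.32, adjusted p = 0.170) nor in 5 of 6 fits without 1 library, and it overlaps Kcnq1. Snhg14 had log2 fold changes of 0.51 and 0.24 that did not pass, while Snrpn, which it overlaps, fell by 1.13 ± 0.21 (adjusted p = 0.00417) and 0.90 ± 0.21 (adjusted p = 0.0160). The imprinted list thus gave 1 higher and 2 lower of 4 in unstimulated cells and 0 higher and 2 lower under TGF-β1. Over all genes 12.1% were higher and 13.7% lower unstimulated, and 5.72% and 7.23% under TGF-β1. The 2 lower were the neighbours Meg3 and Rian in each state.

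Among the 12 lncRNAs that hold microRNAs, 6 were lower with Smad7 loss in unstimulated cells and 0 higher, and under TGF-β1 3 were lower and 0 higher, beside 13.7% and 7.23% of all genes lower. The median log2 fold change was -0.38 and -0.33, beside -0.02 and -0.02 over all genes. Of a separate list of 16 microRNA hosts, 7 were among the 120, of which 4 and 3 were lower. Mir22hg (chr11:75461539-75466676) was at 59.3, 95.2 and 56.0 CPM in control and 38.5, 42.0 and 39.4 in Smad7-KO libraries. Under TGF-β1 it was at 63.0, 73.6 and 65.5 CPM in control and 36.1, 36.3 and 45.2 in Smad7-KO libraries. The genotypes did not overlap. It fell by 0.81 ± 0.18 (adjusted p = 0.0114) and 0.78 ± 0.18 (adjusted p = 0.0171) on the log2 scale. The first call held in all 6 fits without 1 library and the second was lost in 3.

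2810055G20Rik (Mir99ahg, chr16:77236317-77691403), the miR-99a, let-7c and miR-125b-2 host, was at 29.1, 70.2 and 18.6 CPM in control and 13.7, 14.4 and 15.8 in Smad7-KO libraries. With Smad7 loss it changed by -1.42 ± 0.37 on the log2 scale (adjusted p = 0.0213), and by -0.70 without control library 2 (adjusted p = 0.0230). The call was lost without Smad7-KO library 1, 2 or 3 (adjusted p = 0.0748, 0.0721 and 0.0627). Under TGF-β1 the log2 fold change was -0.84 ± 0.37 (adjusted p = 0.161). 2610203C20Rik, the miR-100 and miR-125b-1 host, had log2 fold changes of -0.39 ± 0.13 (adjusted p = 0.0488) and -0.41 ± 0.13 (adjusted p = 0.0631), and the first was lost in 5 of 6 fits without 1 library, with adjusted p values up to 0.159. The TGF-β1-responsive hosts Dnm3os and A330023F24Rik had unstimulated log2 fold changes of -0.21 ± 0.16 (adjusted p = 0.330) and 0.46 ± 0.19 (adjusted p = 0.0876) with Smad7 loss.

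**Figure D4:**
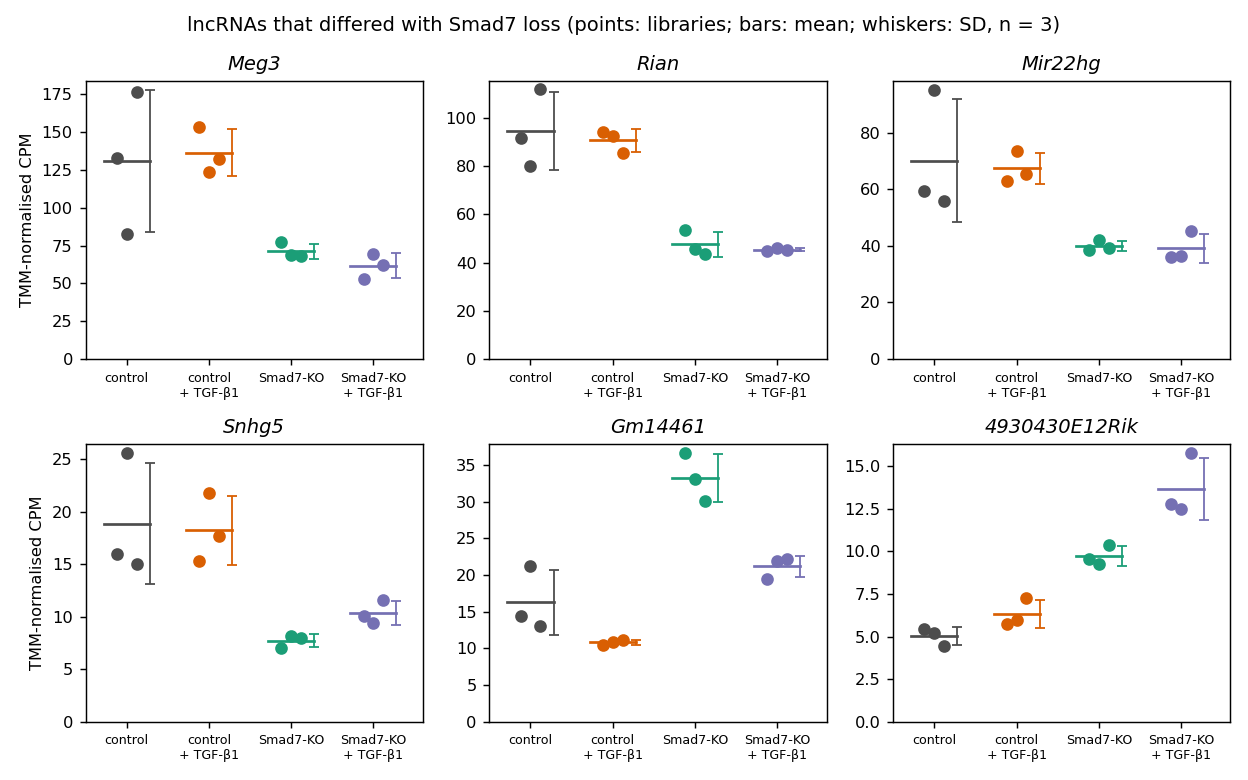
TMM-normalised CPM (y axis, from 0) of 6 lncRNAs in each of the 12 libraries by condition (x axis), with points for libraries, horizontal bars for means and whiskers for SD (n = 3). The Smad7-KO libraries lie below the control libraries of the same state for Meg3, Rian, Mir22hg and Snhg5, and above them for Gm14461 and 4930430E12Rik.

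The snoRNA hosts are short, spliced RNAs whose introns release snoRNAs, the guides of ribosomal RNA modification, and whose exons are degraded during translation. Of 20 such hosts listed, 11 were among the 120, and with Smad7 loss 9 of the 11 were lower in unstimulated cells and 2 under TGF-β1, with none higher in either state, beside 13.7% and 7.23% of all genes lower. The median log2 fold change was -1.14 and -0.63. All 11 had negative log2 fold changes in both states. Gas5 (chr1:161034422-161038539), the most abundant, was at 132, 223 and 79.0 CPM in control, 65.5, 67.3 and 63.9 in Smad7-KO, 102, 140 and 119 in TGF-β1 control and 63.1, 74.6 and 81.4 in TGF-β1 Smad7-KO libraries. The genotypes did not overlap within either state, and the log2 fold changes were -1.14 ± 0.29 (adjusted p = 0.0177) and -0.72 ± 0.28 (adjusted p = 0.121). Snhg5 was at 16.001, 25.5 and 15.1 CPM in control and 7.04, 8.16 and 7.98 in Smad7-KO libraries, a log2 fold change of -1.28 ± 0.21 (adjusted p = 0.00213), and it was at 15.3, 21.8 and 17.6 against 10.1, 9.41 and 11.6 CPM under TGF-β1, a log2 fold change of -0.82 ± 0.21 (adjusted p = 0.0238). Snhg18 had log2 fold changes of -1.14 ± 0.27 (adjusted p = 0.0125) and -1.19 ± 0.27 (adjusted p = 0.0141). 2410004N09Rik had the most negative unstimulated log2 fold change of the hosts, -1.61 ± 0.46 (adjusted p = 0.0292), and Snhg6, Gm11974, 2810008D09Rik, Snhg1 and Snhg12 had values from -1.16 to -1.11 (adjusted p = 0.0236 to 0.0454). 2410004N09Rik was below 5 CPM in at least 1 condition and entered the 120 through its higher conditions. Each of these 6 calls was lost in 4 or 5 of 6 fits without 1 library, whereas the unstimulated call of Snhg5 held in all 6. Under TGF-β1 the calls of Snhg5 and Snhg18 were lost in most such fits (adjusted p up to 0.120 and 0.0749). The unstimulated call of Gas5 was lost without Smad7-KO library 1, 2 or 3, and that of Snhg18 without Smad7-KO library 1 or 2. The remaining hosts, Snhg7 and 9430008C03Rik, had log2 fold changes of -0.25 ± 0.21 and -0.07 ± 0.16 (adjusted p = 0.378 and 0.740).

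Control library 2, in which short genes were high, was the highest control library for the 11 hosts except Snhg7. Without it 3 of the 11 hosts were lower, beside 10.1% of all genes, in unstimulated cells (Snhg5, Snhg18 and Gas5) and the median log2 fold change was -0.68. With the gene length trend of each library removed 8 of the 11 were lower, beside 15.0% of all genes, and the median was -0.80. The 14 lncRNAs with an annotated snoRNA within them gave 11 lower and 0 higher, among them 2410006H16Rik, with log2 fold change -1.14 ± 0.33 (adjusted p = 0.0304), and 1110038B12Rik, with -1.02 ± 0.30 (adjusted p = 0.0301). The calls of 2410006H16Rik and 1110038B12Rik were lost in most fits without 1 library (adjusted p up to 0.0939 and 0.0920). The 105 lncRNAs that are no snoRNA host by list or annotation gave 14 higher and 18 lower, with a median log2 fold change of -0.01.

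**Figure D5:**
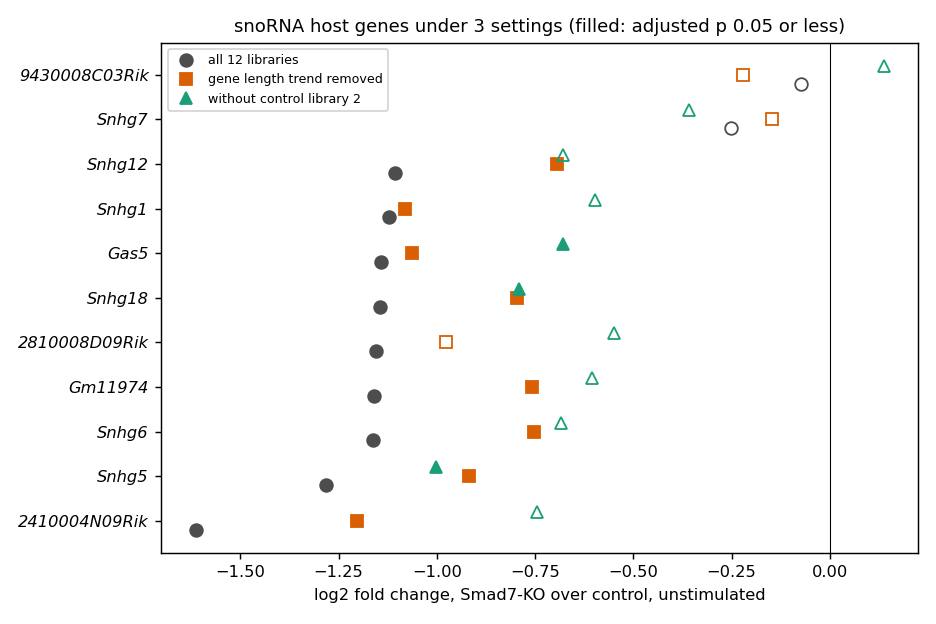
Log2 fold change of Smad7-KO over control in unstimulated cells (x axis) of the 11 listed snoRNA hosts (y axis) with all 12 libraries, with the gene length trend removed and without control library 2. Filled symbols have an edgeR adjusted p of 0.05 or less, which held for 9, 8 and 3 of the 11 hosts, and 9430008C03Rik is the 1 host to the right of 0, without control library 2.

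Malat1 (chr19:5795690-5802672) was at 1501, 763 and 2154 CPM in control and 3372, 3115 and 4136 in Smad7-KO libraries, and at 2143, 915 and 1376 CPM in TGF-β1 control and 2254, 2840 and 3251 in TGF-β1 Smad7-KO libraries. The genotypes did not overlap in either state. The log2 fold change was 1.27 ± 0.36 (adjusted p = 0.0291) unstimulated and 0.91 ± 0.36 (adjusted p = 0.119) under TGF-β1. The first call was kept with the length trend removed (0.97, adjusted p = 0.0111) and lost in 4 of 6 fits without 1 library, with adjusted p values up to 0.0924. Neat1 was higher by 0.50 ± 0.16 in unstimulated Smad7-KO cells (adjusted p = 0.0382), but with the length trend removed its log2 fold change was -0.22 (adjusted p = 0.553), so that its direction depended on this setting.

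The lncRNAs with the firmest increases were less known. Gm14461 (chr2:78237547-78302230) was at 14.4, 21.3 and 13.1 CPM in control and 36.6, 33.0 and 30.1 in Smad7-KO libraries, and at 10.4, 10.9 and 11.2 CPM in TGF-β1 control and 19.5, 21.9 and 22.2 in TGF-β1 Smad7-KO libraries. The genotypes did not overlap in either state. The log2 fold changes were 1.03 ± 0.17 (adjusted p = 0.00201) and 0.97 ± 0.17 (adjusted p = 0.00378). 4930430E12Rik (chr4:6352105-6357530), 8120 bases from the syntenin gene Sdcbp, was higher by 0.95 ± 0.15 (adjusted p = 0.00177) and 1.11 ± 0.15 (adjusted p = 0.000798), and Sdcbp by 0.43 ± 0.11 (adjusted p = 0.0197) and 0.54 ± 0.11 (adjusted p = 0.00943). Both lncRNAs kept their calls in all fits without 1 library.

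Gpr137b-ps, a pseudogene of a lysosomal membrane protein gene whose reads may be shared with Gpr137b, was at 35.1, 18.5 and 50.4 CPM in control and 71.1, 67.8 and 61.6 in Smad7-KO libraries. It was higher by 0.94 ± 0.28 (adjusted p = 0.0336) and, under TGF-β1, by 0.95 ± 0.28 (adjusted p = 0.0463), calls lost in 4 and 6 of 6 fits without 1 library. Gm16185, which overlaps Slc25a36, was higher by 1.28 ± 0.39 in unstimulated cells (adjusted p = 0.0370), with control libraries at 2.42, 2.23 and 6.50 CPM, below 5 CPM on average, so that it entered the 120 through its higher conditions. F730043M19Rik was higher by 0.84 ± 0.14 (adjusted p = 0.00233) and 0.59 ± 0.14 (adjusted p = 0.0165), and Gm26740 by 0.63 ± 0.19 (adjusted p = 0.0373) and 0.69 ± 0.19 (adjusted p = 0.0373). Most fits without 1 library lost the call of Gm16185 (adjusted p up to 0.106). The calls of Gm26740 were lost in most such fits unstimulated and in every one under TGF-β1 (adjusted p up to 0.129 and 0.138). F730043M19Rik lost its second call without TGF-β1 Smad7-KO library 2 or TGF-β1 control library 1 or 2.

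Of the lncRNAs known from the heart, fibrosis or the p53 pathway, 9 of 24 and 2 of 3 listed were among the 120. The first list gave 4 higher and 3 lower in unstimulated cells, and 0 higher and 1 lower (Meg3) under TGF-β1, beside 12.1% and 13.7%, and 5.72% and 7.23%, of all genes. Of the 4 higher, Malat1 alone kept the call with the length trend removed, and Neat1, Kcnq1ot1 and 1700020I14Rik lost it. Its member 1700020I14Rik, known as Cyrano, was at 137, 123 and 191 CPM in control and 222, 215 and 212 in Smad7-KO libraries (log2 fold change 0.53 ± 0.16, adjusted p = 0.0360), a call lost with the length trend removed (0.08, adjusted p = 0.505). Pvt1, which lies 47612 bases from the proto-oncogene Myc, fell by 0.65 ± 0.16 (adjusted p = 0.0180) in unstimulated Smad7-KO cells, and Myc by 0.63 ± 0.17 (adjusted p = 0.0219). The call of Pvt1 was lost without Smad7-KO library 1 or 2 (edgeR adjusted p = 0.0716 and 0.0650). Trp53cor1, or lincRNA-p21, was at 3.01 to 7.33 CPM over the 12 libraries and passed in no comparison, nor did its neighbour Cdkn1a.

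RP24-459A4.1 (Hand2os1, chr8:57304265-57320859) starts 124 bases from Hand2, a transcription factor gene of heart development, on the opposite strand. It was at 10.7, 16.2 and 10.8 CPM in control and 7.23, 5.41 and 5.77 in Smad7-KO libraries, and at 7.36, 7.85 and 5.93 CPM in TGF-β1 control and 3.63, 5.20 and 4.58 in TGF-β1 Smad7-KO libraries. The genotypes did not overlap in either state. With Smad7 loss it had log2 fold changes of -1.03 ± 0.21 (adjusted p = 0.00644) and -0.66 ± 0.21 (adjusted p = 0.0645), and Hand2 of -1.22 ± 0.21 (adjusted p = 0.00282) and -0.71 ± 0.21 (adjusted p = 0.0441). RP24-459A4.1 was below 5 CPM in the TGF-β1 Smad7-KO condition and entered the 120 through its higher conditions. In unstimulated cells 37 of the called lncRNAs had a tested nearest protein-coding gene, which was called in the same direction in 9 and in the opposite direction in 3. That is 32.4% of the 37, beside 29.2% of the nearest genes of all 106 lncRNAs with a tested one and 25.8% of all genes. Peak1os, antisense to Peak1, had log2 fold changes of -1.04 ± 0.16 (adjusted p = 0.00144) and -0.87 ± 0.16 (adjusted p = 0.00491), while Peak1, whose reads cannot be told apart where they overlap, did not pass. Peak1os was also below 5 CPM in at least 1 condition and entered through its higher ones.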

How the data were processed

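RNA-Seq of polyadenylated RNA was performed on 4 conditions of 3 libraries. The authors deposited raw read counts for each gene together with FPKM values, and the latter equalled count divided by length and library total. The submitters' processing notes name CASAVA, TopHat2 2.0, Cufflinks 2.1.1, HTSeq 0.6.1 and the builds mm10 and GRCm38.p6. The strand setting of the counting is not given in the sources used here, and the kit does not mark strand, so overlapping and antisense genes are uncertain. Of the 120 lncRNAs 55 overlapped another gene.

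Differences were tested on the counts in edgeR 4.0.16 under R 4.3.3 (filterByExpr with a minimum count of 10, TMM, robust quasi-likelihood fit to all 12 libraries), with p values adjusted by Benjamini-Hochberg over all genes tested. All 120 lncRNAs passed the filter. Comparisons were Smad7-KO with control in each state, TGF-β1 with no stimulation in each genotype, and the interaction. Alternatives were DESeq2 1.42.0, limma 3.58.1 on log2(FPKM + 1), keeping genes that reached FPKM 1 in 3 libraries, DESeq2 size factors, no filter, only the libraries of a comparison, the replicate block, a loess fit (span 0.3) that took the gene length trend out of every library, narrower lncRNA sets and leaving out each library. The procedures were tested on simulated counts. The lncRNAs, lists and tests were chosen with earlier results of these data known. The lncRNAs named were, per comparison, the 5 lncRNAs that rose and the 5 that fell most among those called without overlap of libraries, the 10 of highest FPKM, listed roles and nearest coding genes. Symbols, overlaps and snoRNAs were matched to GENCODE M21, in which 110 of the 120 identifiers were found and 4 are typed protein_coding. MicroRNA and promoter sequences are from RefSeq, GRCm38.p6. Depth was 19056916 to 25371321 counts per library, and every lncRNA had at least 5 counts in each library. With 3 libraries a condition, the spread between them limits the precision.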

Additional observations from a re-analysis of the deposited data

How the results depend on the processing

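The count of lncRNAs called with Smad7 loss in unstimulated cells (44) moved to 6 when only the libraries of the comparison were fitted, and over fits without 1 library ranged from 12 to 83. Of the 65 lncRNAs overlapping no other gene 24 were called, and of the 61 of mean CPM 10 or more 28, beside 25.8% of all genes. Under TGF-β1 the count (19) was 30 in DESeq2 and 54 when the other 6 libraries were left out, and 6 to 51 without 1 library. For TGF-β1 in control cells the count (10) was 16 in DESeq2 and 4 (4 higher and 0 lower) when the other 6 libraries were left out. The count was 19 with the length trend removed and 7 to 29 without 1 library. It was 5 among the 92 lncRNAs of mean CPM 5 or more in every condition. Of the 61 of mean CPM 10 or more 6 were called, beside 8.37% of all genes. For TGF-β1 in Smad7-KO cells the count (14) was 25 when the other 6 libraries were left out and 8 to 20 without 1 library. It was 9 among the 92 lncRNAs of mean CPM 5 or more in every condition. Of the 65 overlapping no other gene 8 were called, and of the 61 of mean CPM 10 or more 9, beside 10.2% of all genes. The narrower sets hold fewer lncRNAs by construction, and the cause of the other shifts was not tested. Over all genes the counts (3907, 1962, 1268 and 1550) were 660, 4453, 391 and 3792 when the other 6 libraries were left out. DESeq2 called 2975 genes with Smad7 loss under TGF-β1 and 16 in the interaction, where edgeR called 3. With the length trend removed the counts were 4394, 3514, 2204 and 2468, and 8 in the interaction, and the genes that were higher went from 866 of 1962 to 1958 of 3514 for Smad7 loss under TGF-β1 and from 763 of 1268 to 1085 of 2204 for TGF-β1 in control cells. The interaction count among the lncRNAs was 0 in every setting run. With the replicate number as a block the 4 counts were 37, 15, 9 and 14, and same-numbered libraries did not deviate together throughout (correlations of deviations from -0.561 to 0.710), so the numbers were not taken as pairs. In the pair of unstimulated Smad7-KO and TGF-β1 control libraries every library correlated best with its own number. Of 65 named fold changes, 396 of 454 refits by another setting kept direction and call, 57 lost the call and 1 reversed, that of Neat1 in unstimulated Smad7-KO cells with the length trend removed (log2 fold change -0.22). Without 1 library 579 of 780 kept both, 201 lost the call and 0 reversed.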

Other observations

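Of the 120 lncRNAs, 31 start head to head with a protein-coding gene, within 5 kb and on the opposite strand. With Smad7 loss 1 of them was higher and 7 were lower in unstimulated cells, 25.8% of the 31 and the same share as over all genes (25.8%), and with TGF-β1 2 were lower in control cells and 0 passed in Smad7-KO cells. Of the 31 partners 9 were called in unstimulated cells, which is near that share. Where both were called, Atxn7l1 rose beside F730043M19Rik, by 0.71 ± 0.21 on the log2 scale (edgeR adjusted p = 0.0339), and Hand2 fell beside RP24-459A4.1.

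Of the 120 lncRNAs 54 were called in at least 1 comparison of the conditions and 66 in none. The same share over all genes is not given here, so these counts are not read as a trait of the lncRNAs. Across the 12 libraries the lncRNA most like AI504432 was AU020206 (Pearson r = 0.981 of log2 (CPM + 1)), the one most like Dnm3os was RP24-217M7.2 (r = 0.975), and the one most like Gas5 was Snhg1 (r = 0.985), values that share conditions and library composition. Trp53cor1, Tug1, Dleu2 and A430104N18Rik (Mir142hg) passed in no comparison, with A430104N18Rik at 4.68 to 11.4 CPM.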
